A study of Mus musculus with 18 samples.

Results

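The 34 genes described here make cholesterol and fatty acids, control that synthesis, or move cholesterol out of the cell, and they were followed through 18 RNA sequencing libraries of the mouse T cell hybridoma E2-10HA. The genes were taken by name from the 24391 genes of the deposited tables, without use of their values, and all 34 have a row in both tables. They comprise 7 genes of the mevalonate steps, 11 genes of sterol synthesis proper, 4 regulators and sterol transport genes, 7 genes of fatty acid synthesis, and 5 genes of efflux and of the liver X receptors (LXRs). For the knockdown, 3 libraries were made from cells with a pLKO.1 hairpin against L3MBTL3 under puromycin selection and 3 from cells with a scramble hairpin. A single hairpin was used. In the rescue experiment all cells had been depleted of RBPJ, the DNA-binding factor of the Notch pathway, and were infected with Flag-tagged mouse RBPJ carrying the F261A/A284V changes (4 libraries), with the same construct in wild-type form (RBPJ WT, 4 libraries) or with the empty pMY-Bio vector (4 libraries), under blasticidin. None of the rescue libraries came from parental cells with their own RBPJ. The labels of the knockdown libraries name no depletion of RBPJ. All cells grew in IMDM medium with 2% fetal calf serum. The series set out to compare gene expression after knockdown of L3MBTL3 and after rescue with either form of RBPJ.

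Cells build cholesterol from acetyl-CoA through mevalonate, isoprenoid units and squalene, and the genes of this route share the transcription factor SREBP-2, encoded by Srebf2. When membrane sterol is low, SREBP-2 and the related SREBP-1 are released from their membrane anchor; when it is high, Insig1 holds them back, while LXRs switch on transporters such as Abca1 and Abcg1 that carry cholesterol out of the cell. Fatty acid synthesis is driven mainly by SREBP-1, and dividing T cells draw on both routes to build membranes.

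Levels are normalized counts, gene counts that the authors divided by a size factor for each library, and the reads behind them could be recovered. A gene was tested where it reached a normalized count of 10 in 3 or more knockdown libraries or 4 or more rescue libraries. It is named as called where the p of limma, adjusted over all genes tested in the comparison, was below 0.05. Log2 fold changes are on the scale of log2(normalized count + 1). The recovered reads summed to 4882485 to 6129134 per knockdown library and 3553505 to 7921533 per rescue library. The targeted genes check the labels only in part. L3mbtl3 had normalized counts of 394, 371 and 369.6 in the libraries labelled L3MBTL3 shRNA, against 467, 447 and 352 in scramble libraries. Scramble replicate 3 lay below every library of the knockdown group, and L3mbtl3 was not called (log2 fold change −0.15, standard error (SE) 0.11, limma adjusted p = 0.40), so the hairpin libraries are named by their label. Rbpj had 729, 685, 922 and 919 in F261A/A284V libraries, 644, 627, 802 and 818 in RBPJ WT libraries and 317, 317, 255 and 272 in empty vector libraries. Both RBPJ groups lay above the empty vector in every library. Scramble replicate 3 also stood apart across all genes, with a chi-square per degree of freedom of 6.54 and 6.71 against scramble replicates 1 and 2, which differed from each other by 1.44. In the rescue table, replicates 3 and 4 of every group stood apart from replicates 1 and 2. In each rescue group 1 pair of libraries differed by less than sampling noise by the same measure (replicates 3 and 4 of F261A/A284V at 0.813, replicates 1 and 2 of RBPJ WT at 0.706 and of the empty vector at 0.850), and each such pair was counted as 1 sample, leaving 9 samples from 12 libraries. Replicates 3 and 4 of the empty vector, at 1.06, lay just above this cut of 1 and were kept as separate samples. T cell markers were present (11 of 13 passed the filter), whereas Cd8a did not exceed 2.81 and Cd5 did not exceed 6.14 in any of the 18 libraries. B cell, stromal, and adipocyte and liver marker lists each summed to at most 3.69 in every library, and none of their genes passed the filter. Of 10 myeloid markers, 2 passed the filter in the knockdown and 4 in the rescue. Cd14 and Mertk were listed at 0 in the knockdown table, where Cd68 carried most of the sum. In the rescue libraries Cd68 ran from 108 to 199, Fcgr3 from 48.5 to 101, Itgam from 8.43 to 68.8 and Lyz2 from 15.1 to 29.3. In bulk RNA, fewer cells that express a gene and less RNA per cell cannot be told apart.

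The hybridoma held most of the synthesis route at moderate to high levels and the efflux genes at low ones. Per kilobase of exon, the level in scramble libraries was highest for Scd2, which puts a double bond into fatty acids (746 normalized counts per kb, above 99.6% of the genes tested that have a length), and for Insig1 (531 per kb). Cyp51, the lanosterol demethylase, followed at 423 per kb, then Scd1 at 396, Srebf2 at 381, Fasn, the fatty acid synthase, at 371, Srebf1 at 358, and Sqle, the squalene epoxidase, at 325. The efflux branch was lower on the same scale, with Abcg1 at 53.4 and Mylip at 27.0 per kb, apart from Nr1h2, which encodes LXR beta, at 212 per kb. Acacb, the acetyl-CoA carboxylase of mitochondria, reached 10.5 and Abca1 1.27 per kb. Hmgcs1, the cytosolic HMG-CoA synthase, was listed at 0 in all 18 libraries, and no statement on its expression is made. Nr1h3, which encodes LXR alpha, had between 0 and 10 recovered reads per knockdown library and between 1 and 12 per rescue library and passed the filter in neither table. With Abca1 also under the filter in the rescue table, 32 members were tested in the knockdown and 31 in the rescue. Exons of Cyp51, Fdft1, Lss, Srebf1 and Acss2 overlap an annotated gene on the opposite strand that is in the tables, Tm7sf2 overlaps Vps51 on the same strand, and Scd1 and Scd2 are close copies, so the reads of these genes may be shared.

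**Figure D1:**
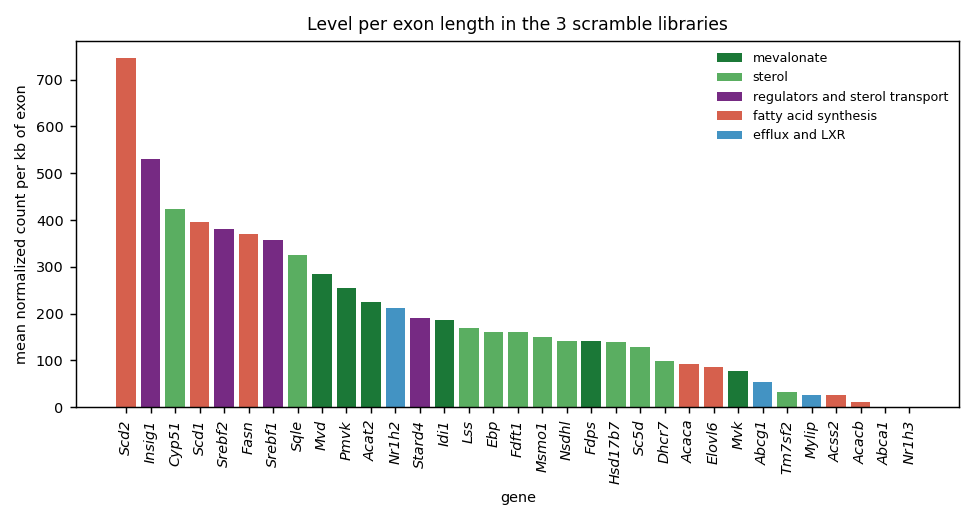
Mean normalized count per kilobase of exon (linear axis) of the members in the 3 scramble libraries, coloured by branch; exon lengths come from an annotation of another genome build (GRCm38) than the authors used. Scd2 stands highest at 746 and Insig1 next at 531, while Abca1, at 1.27, is barely visible.

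Promoters are shown for 3 members around which the results turn, namely Insig1 and Srebf2, 2 regulators that differed together between rescue batches, and Abca1, the efflux transporter called in the knockdown. The windows come from RefSeq (build GRCm38.p6), run 5′ to 3′ on the gene's strand from 250 bases before to 50 bases after the start, and carry CCAAT and GC boxes on either strand in capitals.
Insig1, chr5:28071162-28071461 (+): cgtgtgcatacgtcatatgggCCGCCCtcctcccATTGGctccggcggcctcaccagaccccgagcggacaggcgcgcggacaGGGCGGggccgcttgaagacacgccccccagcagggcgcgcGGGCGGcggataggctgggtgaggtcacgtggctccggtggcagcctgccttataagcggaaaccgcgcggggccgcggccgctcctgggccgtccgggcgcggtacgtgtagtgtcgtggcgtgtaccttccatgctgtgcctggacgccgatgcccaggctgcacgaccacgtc
Srebf2, chr15:82147019-82147318 (+): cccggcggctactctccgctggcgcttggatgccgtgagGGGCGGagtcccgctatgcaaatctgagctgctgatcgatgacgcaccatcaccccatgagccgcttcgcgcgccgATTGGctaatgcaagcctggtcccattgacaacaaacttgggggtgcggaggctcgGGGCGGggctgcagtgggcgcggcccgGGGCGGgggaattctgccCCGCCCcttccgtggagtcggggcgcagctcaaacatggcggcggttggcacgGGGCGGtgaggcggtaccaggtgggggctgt
Abca1, chr4:53159846-53160145 (-): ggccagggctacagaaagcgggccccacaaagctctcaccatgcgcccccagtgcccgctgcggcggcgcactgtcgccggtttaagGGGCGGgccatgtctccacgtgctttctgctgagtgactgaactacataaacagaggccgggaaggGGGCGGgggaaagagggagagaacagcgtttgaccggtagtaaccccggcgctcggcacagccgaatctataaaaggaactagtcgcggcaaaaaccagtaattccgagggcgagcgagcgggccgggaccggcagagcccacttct
Among the 27 members with a RefSeq window, 77.8% had a CCAAT box (CCAAT) on either strand, against 41.1% of all genes with a window, and 74.1% had a GC box (GGGCGG), against 38.2%. The CCAAT box is bound by NF-Y and the GC box by Sp1, both known partners of SREBPs. An E-box (CACGTG) was present in 18.5% of members and 8.09% of all genes. The core of the RBPJ motif (TGGGAA) occurred in 29.6% of members and 28.3% of all genes. The sterol regulatory element was searched as TCACNCCAC and matched in 1 member, Hmgcs1 (1.44% of all genes), and the LXR repeat (AGGTCA again after 4 bases) in none. Only exact matches were counted, so variant sites were not found, and these low counts do not show that the elements are absent. Matches of different motifs shared bases in 4 places, each a CCAAT box with an RBPJ core, in Mvk, Mylip and Nsdhl. Fdps, Fdft1, Sqle, Stard4, Scd1, Scd2 and Abcg1 had no window in the table.

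Abca1, which hands cellular cholesterol to lipid-poor apolipoprotein A-I, was the only member called in the knockdown, and it rose. It had 83.6, 53.0 and 42.2 in the libraries labelled L3MBTL3 shRNA, against 21.5, 10.5 and 7.38 in scramble libraries, from 87, 54 and 44 reads against 23, 11 and 6 reads. The groups did not overlap, although the libraries of each group spread widely. The log2 fold change was 2.17 (95% interval 1.25 to 3.08, SE 0.400, limma adjusted p = 0.0387, n = 3 each). Over all 11586 genes tested, 3.32% were called, 2.21% higher and 1.11% lower, so 1 of 32 members is near the background. The call was lost without replicate 1, 2 or 3 of the hairpin group (log2 fold change of Abca1 1.90, 2.22 and 2.38, adjusted p = 0.209, 0.163 and 0.102) and without scramble replicate 2 (2.08, 0.0862), fits in which 0, 0, 5 and 0 genes were called in the whole comparison. The adjusted p was 0.0362 without scramble replicate 1 and 0.0235 without scramble replicate 3. Without both replicate 3 libraries it was 0.00346. The myeloid markers, listed here because macrophages express Abca1, summed to 255 to 322 in the libraries labelled L3MBTL3 shRNA and 378 to 410.1 in scramble libraries, and their part in the result was not tested.

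Other members of the efflux branch were not called. Mylip, an LXR target whose protein degrades the LDL receptor, had 162, 138 and 96.0 in the libraries labelled L3MBTL3 shRNA, against 97.3, 113 and 51.6 in scramble libraries. The highest scramble library exceeded the lowest hairpin library (log2 fold change 0.63, SE 0.304, adjusted p = 0.23; 0.30 without scramble replicate 3). Abcg1, which loads cholesterol onto HDL, had 412, 410.2 and 313 in the libraries labelled L3MBTL3 shRNA, against 416, 423 and 329 in scramble libraries, and the groups overlapped throughout (−0.04, SE 0.134, adjusted p = 0.85). Nr1h2 differed by 0.04 (SE 0.052, adjusted p = 0.62).

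Replicate numbers are shared between the knockdown groups, but the labels name no pairs. With the replicate as a block the fit called 8 members among 2575 genes, against 1 member among 385 genes without it. Of these, 4 were higher, namely Abca1 (blocked adjusted p = 0.000209), Mylip (0.0112), Acacb (0.0228) and Acss2 (0.00893). Acss2, which makes acetyl-CoA from acetate, had 313, 353 and 347 in the libraries labelled L3MBTL3 shRNA, against 264, 282 and 229 in scramble libraries. Every hairpin library exceeded every scramble library, with a log2 fold change of 0.39 (SE 0.097, unblocked adjusted p = 0.0633). Acacb had 170.1, 128 and 129 in the libraries labelled L3MBTL3 shRNA, against 115, 108 and 81.1 in scramble libraries. Its groups did not overlap either (0.48, SE 0.177, unblocked adjusted p = 0.14). Another 4 were lower under the block, namely Stard4, a carrier of cholesterol between membranes (−0.26, blocked adjusted p = 0.00465), Msmo1, a sterol methyl oxidase (−0.22, 0.0188), Pmvk, the phosphomevalonate kinase (−0.24, 0.0254), and Idi1, the isopentenyl diphosphate isomerase (−0.19, 0.0304). None of these 4 was called without the block, and in scramble replicate 3 all 4 had their highest value of the 6 libraries, for example 1166 for Stard4 against 994 and 1041 in the other scramble libraries and 821, 852 and 1005 in the hairpin libraries. Without scramble replicate 3 the difference was −0.12 for Msmo1, −0.14 for Pmvk, −0.19 for Stard4 and −0.13 for Idi1. With both replicate 3 libraries left out it was −0.18, −0.20, −0.28 and −0.21 in the same order. Without both replicate 3 libraries the unblocked fit called 9 of 32 members and 1905 of 11417 genes. Abca1, Acss2 and Mylip were higher, and Stard4, Msmo1, Idi1, Acaca, Fasn and Elovl6 were lower.

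The cholesterol synthesis route itself showed no called change in the unblocked fit. None of its 17 tested mevalonate and sterol genes passed in limma (4 had an unadjusted p under 0.05) or in edgeR's quasi-likelihood test, 6 were above 0 and 11 below, and the median log2 fold change was −0.08, against −0.01 over all genes. The lowest was Pmvk at −0.24 and the highest Mvk, the mevalonate kinase, at 0.22. The 95% intervals of these 17 genes reached at most 0.47 from 0, for Pmvk, which bounds any change of them in this fit at well under the shift of Abca1. Sqle had 1505, 1592 and 1674 in the libraries labelled L3MBTL3 shRNA, against 1624, 1663 and 2118 in scramble libraries. Insig1 had 1419, 1450.3 and 1522 in the libraries labelled L3MBTL3 shRNA, against 1497, 1544 and 1884 in scramble libraries, and Srebf2 had 2481, 2622 and 2605 in the libraries labelled L3MBTL3 shRNA, against 2578, 2559 and 3070.4 in scramble libraries. For these 3 genes the highest library was scramble replicate 3, and the other scramble libraries lay within or close to the range of the hairpin libraries. Idi1 had 526, 562 and 637 in the libraries labelled L3MBTL3 shRNA, against 612, 644 and 710.5 in scramble libraries. The groups of Idi1 overlapped. Srebf1, which encodes SREBP-1, had 1820.5, 1839.9 and 1832 in the libraries labelled L3MBTL3 shRNA, against 1998, 1912 and 2139 in scramble libraries, lower without overlap (log2 fold change −0.14, SE 0.059, adjusted p = 0.19).

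Among the fatty acid genes, Fasn had 3578, 3607 and 3996 in the libraries labelled L3MBTL3 shRNA, against 3872, 3994 and 4323 in scramble libraries. Scd1 had 1763, 1749 and 1854 in the libraries labelled L3MBTL3 shRNA, against 1848, 1678 and 2279 in scramble libraries, and Scd2 had 3732, 3874 and 3855 in the libraries labelled L3MBTL3 shRNA, against 3779, 3760.0 and 4688 in scramble libraries. All 3 overlapped between the groups and had their highest value in scramble replicate 3 (adjusted p = 0.34, 0.55 and 0.58). Elovl6, which lengthens palmitate, showed the opposite library pattern, with 516, 497 and 499 in the libraries labelled L3MBTL3 shRNA, against 610.1, 623 and 423 in scramble libraries, so that scramble replicate 3 was the lowest of the 6 (−0.11, SE 0.136, adjusted p = 0.62). In all, 5 members lay higher without overlap (Abca1, Acss2, Acacb, Mvk and Hsd17b7), against 18.1% of all genes tested, and 2 lower (Srebf1 and Msmo1), against 17.1%.

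**Figure D2:**
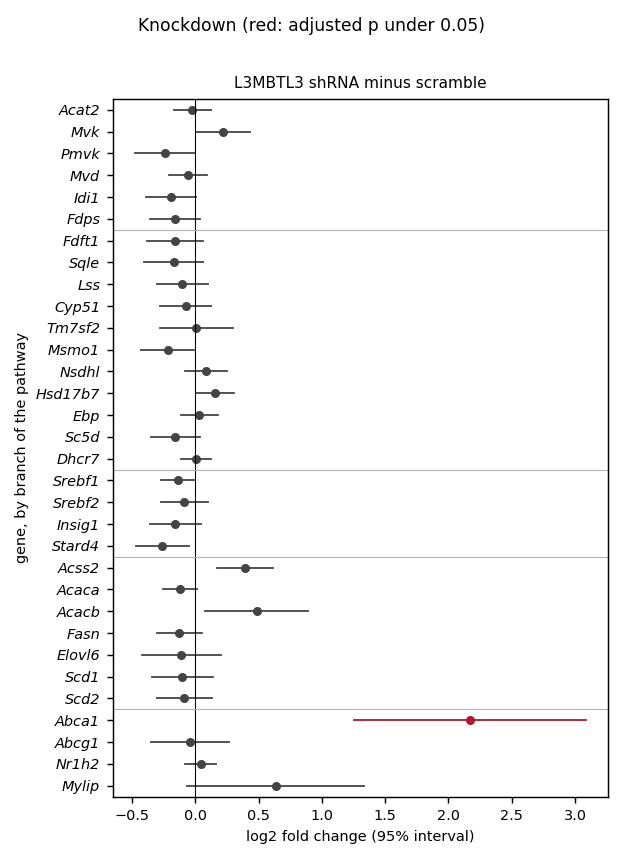
Log2 fold change, libraries labelled L3MBTL3 shRNA minus scramble, with its 95% interval for the 32 members tested (points, limma, 3 libraries a group), ordered by branch with lines between branches. Abca1, in red, is the only called member, at 2.17, and the 17 mevalonate and sterol genes sit between −0.24 and 0.22.

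In the rescue, the clearest difference lay in Abcg1. It had 226, 266, 163 and 146 in F261A/A284V libraries, 319, 339.6, 289 and 298 in RBPJ WT libraries and 283, 295, 205 and 194 in empty vector libraries. Every F261A/A284V library lay below every RBPJ WT library, as for 1.75% of all genes tested, and within each pair of replicates the order was F261A/A284V, then empty vector, then RBPJ WT. Against RBPJ WT, the F261A/A284V cells had a log2 fold change of −0.69 (95% interval −0.89 to −0.48, SE 0.0996, limma adjusted p = 0.000292) in a fit to the 9 samples with batch (replicates 1 and 2 or 3 and 4) as a term. Within replicates 1 and 2 the difference was −0.42, and within replicates 3 and 4 it was −0.92. After averaging, the former fit held a single RBPJ WT sample and the latter a single F261A/A284V sample, so no p is given. All 12 fits that left out 1 library kept the call. Only those without F261A/A284V replicate 1 or 2, or RBPJ WT replicate 3 or 4, removed a sample of this comparison. Their limma adjusted p was 0.00327, 0.000507, 0.0012 and 0.000464 in that order. Without a library of a near-identical pair, the other library of the pair stood in for it. Over the 12 fits the adjusted p was lowest without RBPJ WT replicate 1 (0.000152) and highest without F261A/A284V replicate 1 (0.00327). The fits among them without an empty vector library bear on this comparison only through the shared spread and the batch term. With batch left out of the fit the call was lost (adjusted p = 0.99 for the 9 samples and 0.40 for all 12 libraries). The 9 samples are uneven over batch. F261A/A284V holds more samples of replicates 1 and 2, and the other groups hold more of replicates 3 and 4.

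The comparison of F261A/A284V with RBPJ WT called 2 of the 31 members tested, both lower, against 1.96% of 11691 genes in either direction and 0.881% lower. The second was Elovl6, with 461, 503, 320.3 and 310.2 in F261A/A284V libraries, 539, 569.7, 399 and 443 in RBPJ WT libraries and 507, 501, 393 and 408 in empty vector libraries. Within each pair of replicates both F261A/A284V libraries lay below both RBPJ WT libraries, but over all replicates the groups overlapped. The log2 fold change was −0.29 (95% interval −0.44 to −0.14, SE 0.072, adjusted p = 0.0396). The call was lost without F261A/A284V replicate 1 (0.0903), RBPJ WT replicate 2 (0.0601) or 4 (0.105), or empty vector replicate 3 (0.0616). It was also lost with TMM scaling (0.0528), with all genes kept irrespective of level (0.16), and without the batch term (0.99). The difference was −0.20 within replicates 1 and 2 and −0.41 within replicates 3 and 4, fits with a single sample in 1 of the groups compared.

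Acacb and Acss2 were called in this comparison with the replicate as a block over all 12 libraries, where 4 of 31 members and 554 of 11691 genes passed. In the fit to the 9 samples with batch 2 members and 229 genes passed. All 12 libraries with the batch term and no block gave the same 4 members and 598 genes (limma adjusted p = 0.0253 for Acacb and 0.0103 for Acss2). Both fits to 12 libraries count near-identical libraries as separate samples, so their added calls cannot be ascribed to the block. Acacb had 189.6, 228, 122 and 134 in F261A/A284V libraries, 166, 212, 82.8 and 61.8 in RBPJ WT libraries and 220.3, 199, 94.5 and 109 in empty vector libraries. Within replicates 3 and 4 both F261A/A284V libraries lay above both RBPJ WT libraries, while the values of replicates 1 and 2 overlapped (0.48, SE 0.145, adjusted p = 0.11, blocked 0.0289). Acss2 had 462, 441, 385 and 412 in F261A/A284V libraries, 536, 516, 457 and 447 in RBPJ WT libraries and 475, 514, 449 and 420.3 in empty vector libraries. In each pair of replicates the F261A/A284V libraries were the lower ones (−0.20, SE 0.060, adjusted p = 0.11, blocked 0.0172, edgeR 0.0320). Mylip had 73.0, 82.4, 55.4 and 47.0 in F261A/A284V libraries, 90.1, 113, 81.5 and 52.0 in RBPJ WT libraries and 95.7, 104, 67.1 and 55.0 in empty vector libraries, with overlapping groups (−0.37, SE 0.166, adjusted p = 0.40).

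Cells with RBPJ WT had 1 of 31 members higher than cells with the empty vector, again Abcg1, by 0.43 on the log2 scale (95% interval 0.23 to 0.63, SE 0.096, adjusted p = 0.0193). Of all genes tested, 1.52% were called in this comparison, and 0.667% were called higher. Taken over all replicates the values of the RBPJ WT and empty vector libraries overlapped. The difference was 0.19 within replicates 1 and 2 and 0.55 within replicates 3 and 4. After averaging, each of these fits held a single sample of 1 group or more, so the differences are given without p. The call was lost in edgeR's quasi-likelihood test (0.0773), with all genes kept irrespective of level (0.115), and without RBPJ WT replicate 3 (0.112) or 4 (0.0973) or empty vector replicate 3 (0.0843) or 4 (0.134). It was kept with the replicate as a block (0.0203). Myeloid markers summed to 278 to 314 in F261A/A284V, 238 to 268 in RBPJ WT and 287 to 312 in empty vector libraries; the lowest sums thus went with the highest Abcg1, and their part in the result was not tested.

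F261A/A284V against the empty vector gave no called member in limma or in edgeR, where 0.0941% of all genes were called; 4 members had an unadjusted p under 0.05. These were Abcg1 (−0.25, SE 0.0996, adjusted p = 0.82), Elovl6 (−0.20, SE 0.072, 0.76), Mvd, the mevalonate diphosphate decarboxylase (−0.15, SE 0.058, 0.82), and Acss2 (−0.13, SE 0.060, 0.97). The 3 rescue comparisons share samples: RBPJ WT libraries enter both comparisons with RBPJ WT and empty vector libraries both comparisons with the empty vector, so the values of Abcg1, −0.69, 0.43 and −0.25, are not independent of each other.

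**Figure D3:**
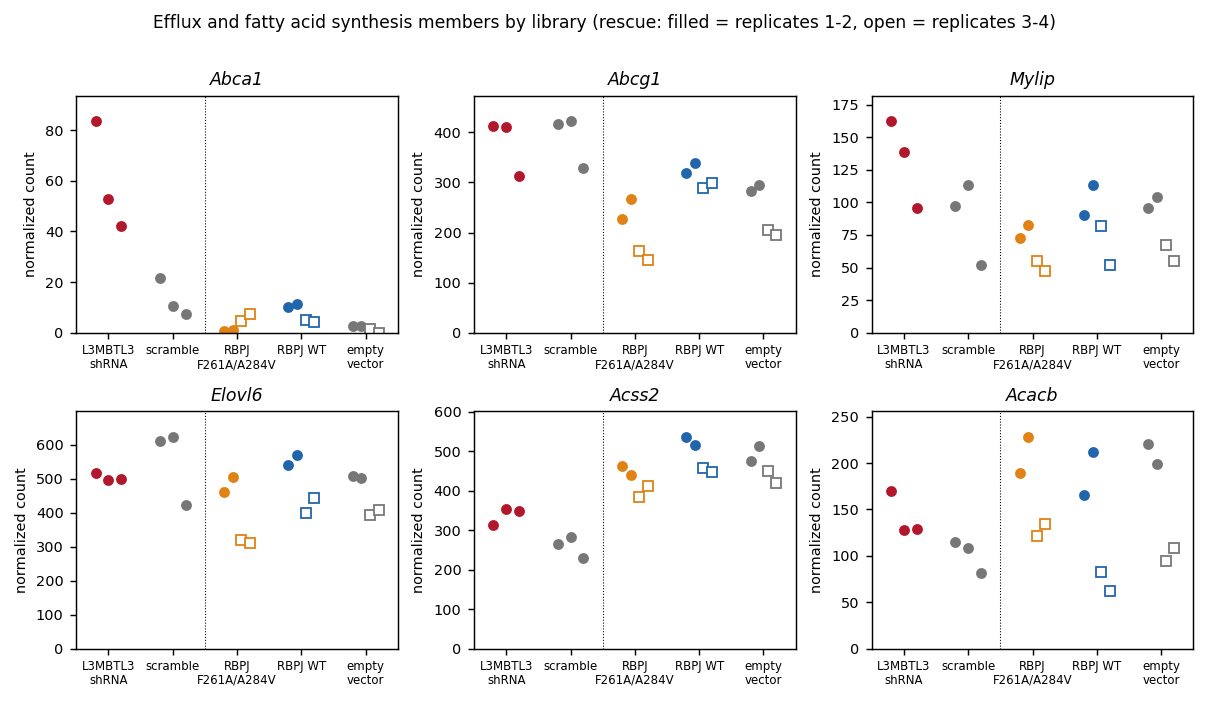
Normalized count (linear axes from 0) of 6 efflux and fatty acid genes in each library, with knockdown groups left of the dotted line and rescue groups right of it; filled circles in the rescue are replicates 1 and 2, open squares replicates 3 and 4. Abca1 reaches 42.2 to 83.6 in the libraries labelled L3MBTL3 shRNA, and Abcg1 is lowest in F261A/A284V within each pair of rescue replicates.

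Abca1 was too low to test in the rescue, with 1, 2, 3 and 5 reads in F261A/A284V libraries, 15, 18, 4 and 3 reads in RBPJ WT libraries, and 4, 4, 1 and 0 reads in empty vector libraries. Replicates 1 and 2 of RBPJ WT held the most reads, and all values lay near or under the filter.

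No gene of cholesterol synthesis was called between the rescue groups. Of the 17 mevalonate and sterol genes tested, none passed in limma or edgeR in any of the 3 comparisons; in limma 1 had an unadjusted p under 0.05 for F261A/A284V against RBPJ WT, 3 for RBPJ WT against the empty vector and 1 for F261A/A284V against the empty vector. For F261A/A284V against RBPJ WT their log2 fold changes ran from −0.13 for Mvd to 0.11 for Ebp, the sterol isomerase, with 13 above 0 and 4 below and a median of 0.06, against 0.02 over all genes. For RBPJ WT against the empty vector they ran from −0.18 for Mvk to 0.07 for Sc5d, the lathosterol oxidase, with 2 above 0 and 15 below and a median of −0.06, against −0.01. For F261A/A284V against the empty vector they ran from −0.17 for Tm7sf2 to 0.07 for Sc5d, with 7 above 0 and 10 below and a median of −0.04, against 0.01. The farthest bound of any 95% interval was 0.31, 0.35 and 0.38 in these comparisons. The 4 regulators and transport genes lay between −0.11 and 0.10 in all 3, and none was called in limma or edgeR.

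**Figure D4:**
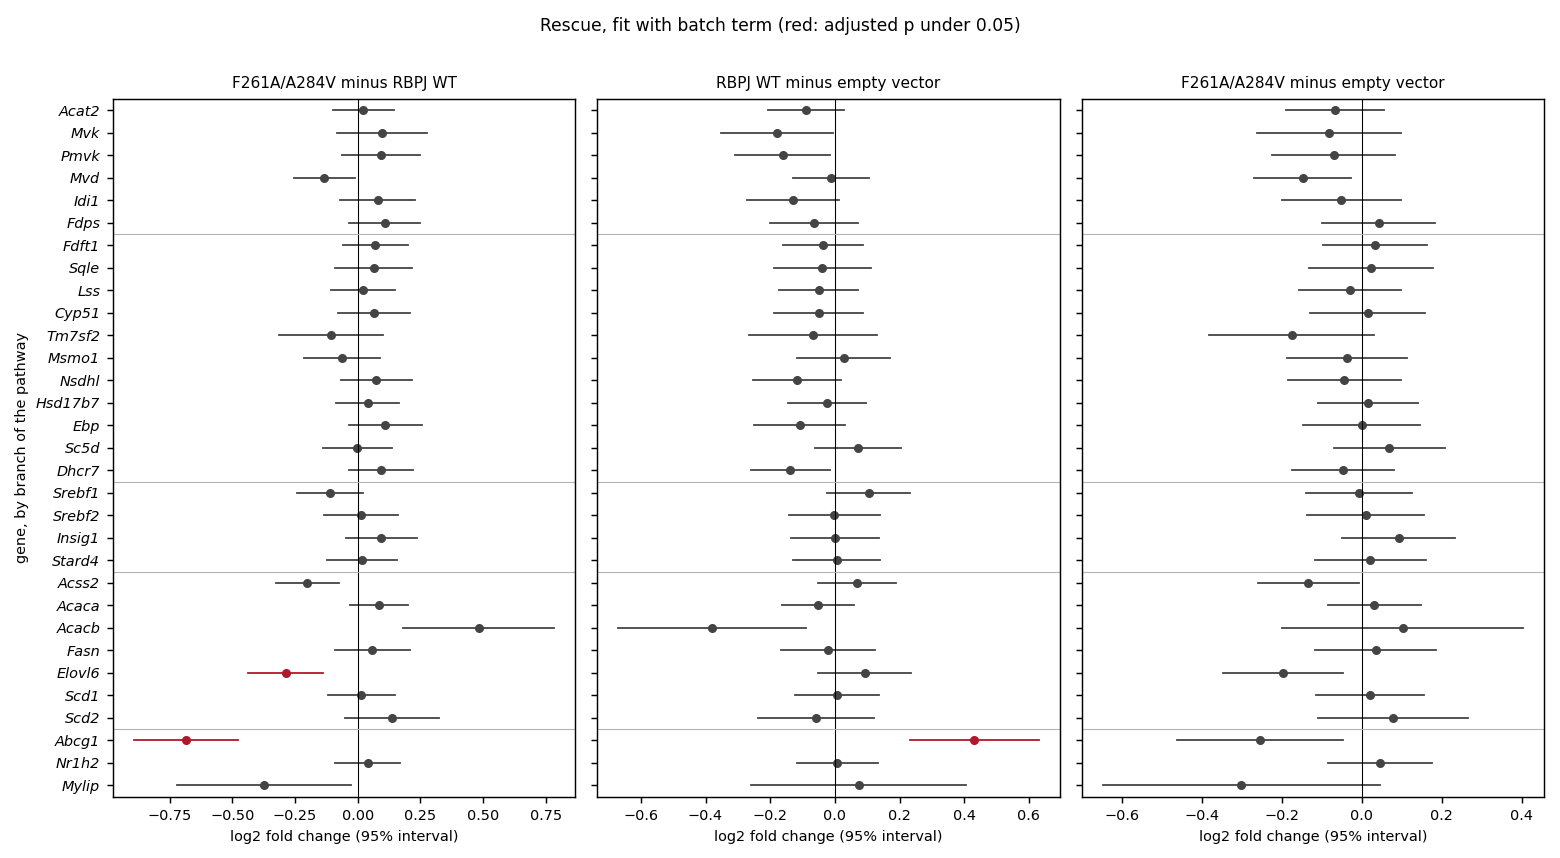
Log2 fold change with its 95% interval for the 31 members tested in each rescue comparison (points, limma with batch as a term, 3 samples a group after near-identical libraries were averaged; the panels have different x scales). Abcg1 is called lower in F261A/A284V than in RBPJ WT (−0.69) and higher in RBPJ WT than in the empty vector (0.43), Elovl6 lower in F261A/A284V than in RBPJ WT (−0.29), and no member in the right-hand panel.

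The largest shifts of the synthesis genes in the rescue lay between replicates, not between groups. In replicates 3 and 4 compared with replicates 1 and 2, 20 of 31 members were higher without overlap over the 12 libraries (64.5%), against 26.2% of all genes tested, and 2 were lower (6.45%), against 21.3%. The median difference of the members was 0.26 on the log2 scale, against −0.02 over all genes. The divide was found in these data, so it is described without a test. Replicates 3 and 4 had 3553505 to 4239479 reads per library and replicates 1 and 2 had 5923799 to 7921533, and depth cannot be told apart from the divide.

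All 4 regulators and transport genes were among those higher. Insig1 had 1891 and 1871 in replicates 3 and 4 of F261A/A284V against 1217 and 1025 in replicates 1 and 2, 1712 and 1848 against 1072 and 1025 in RBPJ WT, and 1740.0 and 1874 against 998 and 1039.6 in the empty vector. The difference averaged 0.78 over the 3 groups. Srebf2 ran from 2810.2 to 2904 in replicates 3 and 4 and from 1731 to 2042 in replicates 1 and 2 (0.62), Srebf1 from 1663 to 1927 and from 1246 to 1407 (0.44), and Stard4 from 994 to 1116 and from 843 to 957 (0.26). Each of these ranges was clear of the other in every group.

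In sterol synthesis 8 of 11 genes were higher, led by Sqle, with 2038 to 2314 in replicates 3 and 4 and 1225 to 1508 in replicates 1 and 2 (0.72). Msmo1 (0.60) and Cyp51 (0.48) came next. Of the mevalonate genes 4 of 6 were higher, led by Fdps, the farnesyl diphosphate synthase (0.58). Idi1 was an exception, with 635, 549.8, 509.7 and 522 in F261A/A284V libraries, 549, 535, 490.4 and 531 in RBPJ WT libraries and 576, 591, 523 and 607 in empty vector libraries, where the batches overlapped (−0.11). Nsdhl (0.07), Hsd17b7 (−0.06), Tm7sf2 (−0.22) and Mvk (−0.17) overlapped as well.

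Fatty acid genes were split. Scd2 had the largest upward difference of the members tested, with 4554 to 5195 in replicates 3 and 4 and 2636 to 3379 in replicates 1 and 2 (0.81), and Fasn (0.37; 3829 to 4007 and 2936 to 3254) and Scd1 (0.25; 1380.0 to 1588 and 1195 to 1317) were also higher. Acacb, with 61.8 to 134 in replicates 3 and 4 and 166 to 228 in replicates 1 and 2, was lower (−1.04), as was Elovl6, with 310.2 to 443 and 461 to 569.7 (−0.45). Acaca (−0.07) and Acss2 (−0.20) overlapped. In the efflux branch, Nr1h2 was higher (0.39), and Abcg1 (−0.45) and Mylip (−0.64) were lower on average with overlap. No member differed by at least 2-fold in all 3 groups in either direction, against 0.0941% of all genes higher and 1.43% lower.

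**Figure D5:**
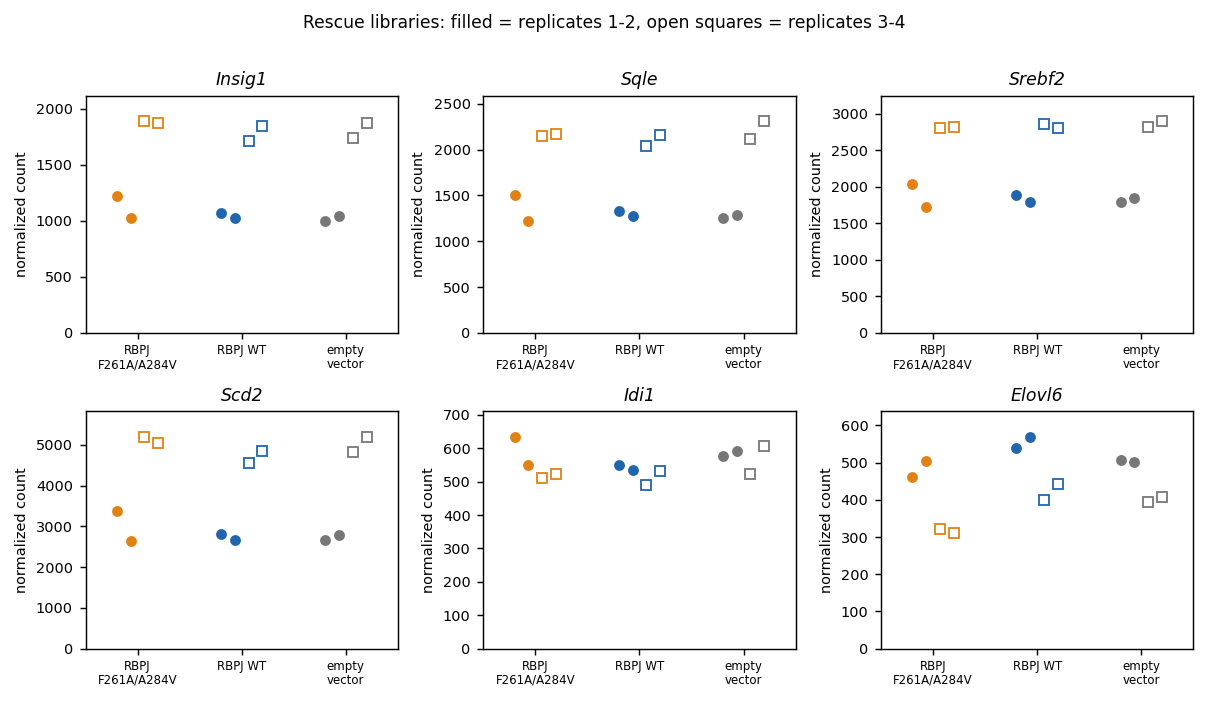
Normalized count (linear axes from 0) of 6 members in the 12 rescue libraries by group; filled circles are replicates 1 and 2, open squares replicates 3 and 4. Insig1, Sqle, Srebf2 and Scd2 are higher in replicates 3 and 4 of all 3 groups, Elovl6 is lower, and Idi1 overlaps.

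Correlations between genes inside the groups were computed as a description. After group and batch means were removed, the 17 mevalonate and sterol genes had a median pairwise Pearson correlation of 0.65 over the 12 rescue libraries, with pairs from −0.76 to 0.98, and after group means were removed a median of 0.49 over the 6 knockdown libraries, with pairs from −0.89 to 0.99. For the 7 fatty acid genes the medians were 0.09 in the rescue and −0.31 in the knockdown. All genes of a library share its depth and size factor, the same values over all genes were not computed, and no test was made. Each rescue group and batch held only a pair of libraries, whose deviations from their mean mirror each other. The rescue values thus rest on fewer contrasts than libraries, and some of these pairs differed by less than sampling noise. The knockdown values include scramble replicate 3, which stood apart. In summed normalized counts of the mevalonate and sterol genes, scramble replicate 3 was the highest knockdown library at 14053, against 12249 and 12388 in the other scramble libraries and between 11332 and 12823 where the label was L3MBTL3 shRNA.

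Other genes of these pathways, listed by role, were tested in the same fits. In the knockdown 39 were tested, and 2 rose and 1 fell, where 3.32% of all genes were called. Rxra, which encodes the retinoid X receptor that pairs with LXRs, averaged 147 ± 23.4 in the libraries labelled L3MBTL3 shRNA and 87.3 ± 9.64 in scramble libraries (SD, n = 3 each; log2 fold change 0.74, SE 0.157, limma adjusted p = 0.0491). Scap, the sterol sensor that escorts SREBPs, averaged 728 ± 9.53 and 582 ± 32.8 in the same groups (0.32, SE 0.058, adjusted p = 0.0369). Erlin1, an endoplasmic reticulum protein that takes part in the turnover of HMG-CoA reductase, averaged 439 ± 38.2 and 617 ± 51.2 (−0.49, SE 0.085, adjusted p = 0.0348). All 3 lost their call without any 1 hairpin library or without scramble replicate 2, with adjusted p from 0.0780 to 0.24, and Rxra also without scramble replicate 1 (0.0607). In the rescue, 40 such genes were tested, and the 1 called was Rxra, lower in RBPJ WT than in the empty vector (−0.36, SE 0.084, adjusted p = 0.0302), where 1.52% of all genes were called. That call was lost without the batch term, without the filter on low values (0.0699), and without RBPJ WT replicate 3 (0.0914) or 4 (0.12), empty vector replicate 3 (0.20) or F261A/A284V replicate 2 (0.0602). Within replicates 1 and 2 the difference was −0.28, and within replicates 3 and 4 it was −0.39. F261A/A284V gave 0 calls among them in limma against RBPJ WT (7 with an unadjusted p under 0.05), where edgeR called Acsl1, Lpcat3 and Rxra, and 0 in both tools against the empty vector (0 in limma and 1 in edgeR with an unadjusted p under 0.05).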

How the data were processed

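RNA from E2-10HA cells was sequenced in 18 stranded, ribosome-depleted libraries, and the authors deposited 1 table of normalized counts per experiment. TopHat2 2.1.1, DESeq2 1.24.0 and mm9 are named in the submitters' processing notes. Sources used here do not give the counter, the annotation or whether strand was kept. The deposited values behave as a signal, gene counts divided by 1 size factor per library: 100% came out as whole reads within 0.1 read. The tables were normalized separately, so tests stayed within a table. Labels do not say that replicates were separate cultures, so a p-value here reflects no more than the spread between samples, possibly technical.

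Genes that reached 10 in 3 or more knockdown libraries, or in 4 or more rescue libraries, were tested, as log2(value + 1), with limma-trend 3.58.1 in R 4.3.3, 2-sided, and called where the p adjusted by Benjamini-Hochberg across the whole comparison was below 0.05. Fold changes on this scale understate the change of low genes. The knockdown fit had group as its only term. The rescue fit took 9 samples, near-identical libraries averaged, with batch as a term. Averaging left a single RBPJ WT and a single empty vector sample in replicates 1 and 2. In replicates 3 and 4 it left a single F261A/A284V sample. Fits within a pair of replicates are therefore given as fold changes only. Alternatives included edgeR 4.0.16 on the recovered reads. Exon lengths came from GENCODE M21 on GRCm38.

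Replicate numbers are shared between groups. After group means were removed, knockdown libraries of 1 number correlated at 0.24 to 0.54 and those of different numbers at −0.47 to 0.33. The ranges overlap and the labels name no pairs, so blocked values only stand beside the unblocked results. In the rescue, libraries of 1 number correlated at 0.55 to 0.81, and at −0.13 to 0.16 once batch means were removed as well. The block was run there on all 12 libraries.

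Values in every library are printed for members called in any comparison and for chosen members of each branch. The members, the lists of other genes and the tests were chosen with earlier results of these data known.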

Additional observations from a re-analysis of the deposited data

Results flagged for a closer look

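Abca1 in the rescue changed direction between replicates for F261A/A284V against the empty vector. On the log2(value + 1) scale the difference was 2.15 within replicates 3 and 4 and −0.83 within replicates 1 and 2, a gap of 2.98. It rests on 3 and 5 reads in F261A/A284V against 1 and 0 reads in the empty vector in replicates 3 and 4, and on 1 and 2 reads against 4 and 4 reads in replicates 1 and 2. The gene was under the filter on low values, and the difference between the pairs of replicates was not tested. No member tested in the rescue was called for a different group effect between the pairs of replicates in limma (0 of 31 in each comparison). Among them, 2 had an unadjusted p under 0.05 for F261A/A284V against RBPJ WT and 0 in each of the others. In each group 1 pair of replicates entered as a single averaged sample, so this fit could miss differences and the lack of calls does not show equal effects. Of all 11691 genes, 7 were called for F261A/A284V against RBPJ WT and 0 in each of the others, and 425 had an unadjusted p under 0.05 there, 67 for RBPJ WT against the empty vector and 256 for F261A/A284V against the empty vector.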

How the results depend on the processing

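In the knockdown, 2575 genes and 8 members were called with the replicate block, and 1905 and 9 without both replicate 3 libraries, an alternative chosen after seeing the data; against 385 and 1 in the fit as reported. Leaving out 1 library gave 0 to 1032 genes and 0 to 3 members: 0 genes without replicate 1 or 2 of the hairpin group or scramble replicate 2 (1648, 1873 and 2900 at an unadjusted p under 0.05 in limma), 5 without replicate 3 of the hairpin group and 1032 without scramble replicate 3. For F261A/A284V against RBPJ WT, genes called numbered 598 (all 12 libraries, batch term), 37 (all 12, group only), 12 (9 samples, no batch term), 121 (no filter on low values), 554 (replicate block) and 82 (within replicates 1 and 2), against 229. Members numbered 4, 0, 0, 1 and 4 in the same order, and 1 with TMM scaling, against 2. Leaving out 1 library gave 1 to 2. For RBPJ WT against the empty vector, genes numbered 283, 29, 13 and 94 in the first 4 of those settings, 38 within replicates 1 and 2 and 118 within replicates 3 and 4, against 178, and 111 to 187 with 1 library left out. Members numbered 0 with all 12 libraries by group only, in edgeR, without the batch term and without the filter, and 0 to 1 with 1 library left out. For F261A/A284V against the empty vector, genes numbered 81, 2, 1 and 5 in those 4 settings, 25 in edgeR, 76 with the replicate block, 6 within replicates 1 and 2 and 35 within replicates 3 and 4, against 11, and 3 to 26 with 1 library left out; members were 0 throughout. No called member reversed its direction under these settings, but members near 0 did: Abcg1 in the knockdown was −0.04 as reported and 0.09 without replicate 3 of the hairpin group, and Acacb for F261A/A284V against the empty vector was 0.10 and −0.01 within replicates 1 and 2. The replicate block changed no call of a member other than those given in the report. Whether these differences come from the batch, the depth or single libraries was not tested. Abca1 had 0 to 18 and Nr1h3 1 to 12 reads per rescue library, and neither passed the filter there.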
